A study of Homo sapiens with 10 samples.

Results

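Mucins, trefoil factors and CEACAMs are the molecules with which an intestinal epithelium covers its luminal face, and 10 of their genes (MUC1, MUC2, MUC5AC, MUC13, MUC17, TFF1, TFF3, CEACAM1, CEACAM5 and CEACAM6) were followed across 10 RNA-seq libraries of Caco-2 cells. They were taken by gene symbol from the 60554 annotated genes, and the estimated counts of all transcripts of a gene were summed. Caco-2 cells derive from a human colon carcinoma and take on enterocyte features in culture. In all groups the cells came from a clone that stably carried dCas9-KRAB, in which a Cas9 without nuclease activity is joined to a repressor domain, and that was selected with puromycin. Lentivirus then brought in an empty guide plasmid with a hygromycin gene (gCtl, n = 5) or the same kind of plasmid with guide g1 (n = 3) or guide g2 (n = 2) against the long non-coding RNA LHFPL3-AS2. The labels do not say whether the libraries of a group came from separate cultures, so the p-values measure the spread between libraries, which may be technical. As each guide was put into 1 clonal line, effects of a guide and of the cells that carried it cannot be told apart.

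Secreted gel-forming mucins such as MUC2 and MUC5AC build the mucus layer, and MUC2 is the main product of intestinal goblet cells. Transmembrane mucins (MUC1, MUC13, MUC17) stay anchored in the apical membrane and form the glycocalyx. Trefoil factors are small secreted peptides that act with mucus in epithelial repair, TFF1 mainly in the stomach and TFF3 in intestinal goblet cells. CEACAMs are immunoglobulin-like adhesion molecules. CEACAM1 spans the membrane and has a signalling tail, whereas CEACAM5, the carcinoembryonic antigen, and CEACAM6 are held by a lipid anchor.

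Libraries held between 3838803 and 8730468 estimated counts. LHFPL3-AS2 (GRCh38 chromosome 7, 104894628 to 104926645, minus strand) lay between 0.84 and 3.73 RPM (reads scaled to the library total) in gCtl, between 2.03 and 3.95 in g1 and between 2.16 and 6.01 in g2, so libraries labelled with a guide did not hold less of the RNA that the guides target, and every direction below rests on the labels. The study describes a depletion measured by qPCR, which was not analysed here. Within groups, all 14 pairs of libraries differed by more than sampling noise (chi-square per degree of freedom 4.28 to 26.0), so none repeated another. The enterocyte list (14 genes, 10 past the filter described below) summed to between 1986 and 2780 CPM (RPM with TMM scaling) across all libraries, with EPCAM, VIL1 and CDX2 among its expressed genes. Its markers CDX1, ALPI, APOA4 and SI, the last of them sucrase-isomaltase of the mature brush border, did not exceed 0.359, 0.918, 1.26 and 3.04 CPM. SI, named after its values were seen, was at most 0.349 CPM in gCtl and at least 1.02 CPM in all guide libraries. It was called in the fit over all biotypes described below (both guides log2 fold change 4.07, adjusted p = 0.0037; 4.51% of genes called higher). With 2 counts in gCtl and 56 in guide libraries, SI entered that fit through guide libraries, so its call follows in part from the count minimum there. Enteroendocrine, Paneth, immune, fibroblast and endothelial lists summed to at most 12.6, 29.4, 28.2, 10.1 and 9.93 CPM in any library. Single markers of these lists were called, named after their values were seen. With g1, NEUROD1 (enteroendocrine, mean 5.31 CPM in gCtl and 1.20 in g1) and PLA2G2A (Paneth, 4.21 and 1.41) were lower, as were 9.91% of all genes tested. PECAM1 (endothelial, 2.86 and 7.06) was higher, as were 6.81%. No g1 library exceeded the RPM minimum of the filter for NEUROD1 or PLA2G2A, so the filter favoured a lower value there. With g2 the enterocyte list had KRT18 lower (13.0% of all genes tested) and KRT20 higher (10.7%).

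Of the 10 genes, CEACAM6 and MUC13 were higher in the libraries of both guides than in gCtl, MUC2 was read almost only in the libraries labelled g2, and TFF1, TFF3, CEACAM1 and CEACAM5 did not pass the test. The test was edgeR's quasi-likelihood F test over 11640 protein-coding genes whose RPM exceeded 3 in 20% of the libraries or more. Calls needed a fold change of 1.5 or more and an adjusted p no higher than 0.05. The filter left 6 of the 10 genes, of which CEACAM5 exceeded the RPM minimum in guide libraries alone, so that the filter favoured a higher value there. MUC2 reached the RPM minimum, in the g2 libraries alone, but has no protein-coding transcript in the annotation used, and MUC1, MUC5AC and MUC17 were too low. Those 4 were tested among the 23413 genes, whatever their biotype, that reached 10 counts over all libraries. In bulk RNA, more cells that express a gene and more RNA per cell cannot be told apart.

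With both guides against gCtl (5 against 5 libraries), 2 of the 6 genes were called, both higher, where 8.14% of all genes tested were called higher. The median log2 fold change over all genes tested was 0.02. The same 2 genes, CEACAM6 and MUC13, were called with g1 (background 6.81% higher) and with g2 (background 10.7% higher). They were also the ones whose 5 guide libraries all lay above all 5 gCtl libraries, as 7.08% of all genes tested did. Between g2 and g1, 0 of the 6 were called with edgeR or with DESeq2, 1 had an unadjusted p under 0.05, and 4.97% of all genes were called in either direction. The 3 comparisons with gCtl share their control libraries.

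**Figure D1:**
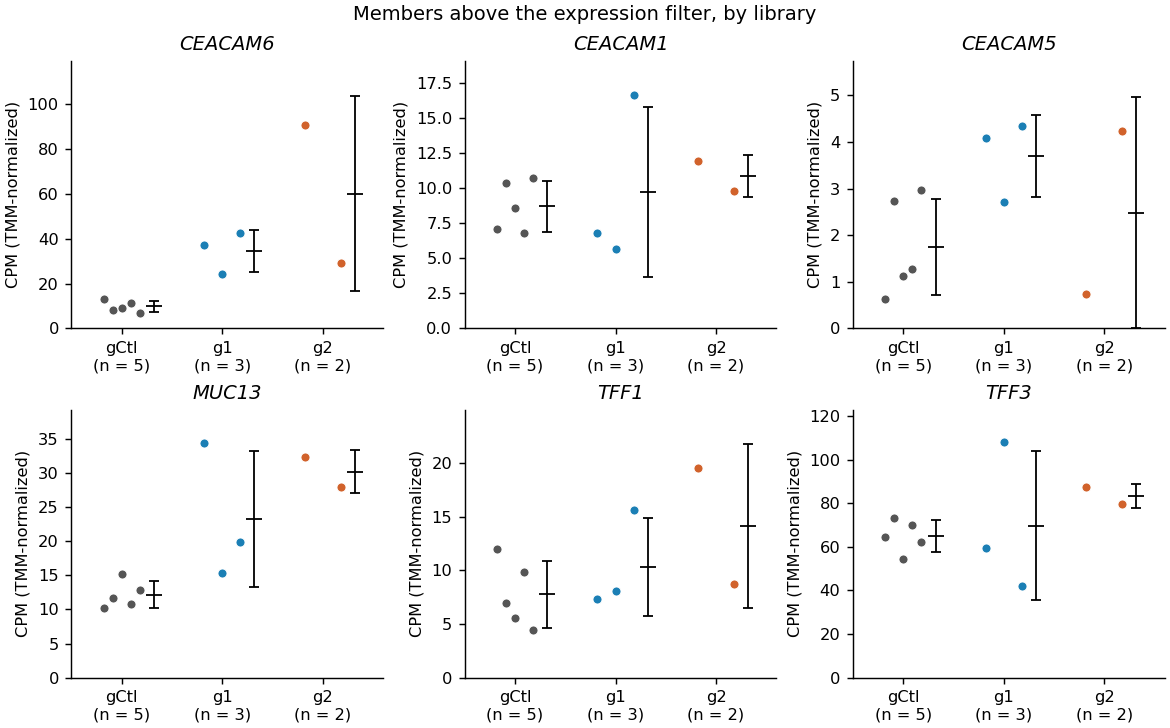
Level of the 6 genes past the expression filter, in TMM-normalized CPM (y axes from 0), by guide group; each point is a library, and the black mark gives the group mean with its SD. CEACAM6 and MUC13 lie above every gCtl library in all 5 guide libraries, with CEACAM6 at 90.7 CPM in g2 replicate 1, and the other 4 genes overlap gCtl.

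CEACAM6 (ENSG00000086548.8, GRCh38 chromosome 19, 41750977 to 41772208, plus strand), a lipid-anchored adhesion molecule that is raised in many colon carcinomas, showed the largest fold change of the 6. It measured 13.2, 8.26, 8.89, 11.6 and 7.06 CPM in gCtl, 37.0, 24.3 and 42.4 CPM in g1, and 90.7 and 29.2 CPM in g2. The lowest guide library was above the highest gCtl library, and g2 replicate 1 stood apart from all others. The means were 9.80 ± 2.53 CPM (SD, n = 5) in gCtl, 34.5 ± 9.30 CPM (SD, n = 3) in g1 and 60.0 ± 43.5 CPM (SD, n = 2) in g2. The log2 fold change of both guides against gCtl was 2.20 (standard error 0.32, adjusted p = 0.00038), which is 4.61-fold, and it was 1.84 (standard error 0.31, adjusted p = 0.001) for g1 and 2.62 (standard error 0.33, adjusted p = 8.0e-05) for g2. The order of the means was gCtl, g1, g2. The step from g1 to g2 was not called (log2 fold change 0.78, standard error 0.36, adjusted p = 0.22). It hung on g2 replicate 1, without which it was -0.24, while without g2 replicate 2 it was 1.40. Each of these values leaves 1 g2 library, which is assumed to vary like the other groups, and the latter was called on that assumption. CEACAM6 against gCtl stayed called in every alternative run, those with 1 g2 library on the same assumption.

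CEACAM1 (ENSG00000079385.21, chromosome 19, 42507304 to 42561234, minus strand), the member with a signalling tail, measured 7.11, 10.4, 8.62, 6.79 and 10.7 CPM in gCtl, 6.83, 5.69 and 16.7 CPM in g1, and 11.9 and 9.81 CPM in g2. One g1 library was the highest of all and another the lowest, and the groups overlapped. The log2 fold change of both guides was 0.24 (standard error 0.28, adjusted p = 0.57), and without g1 replicate 3 it was -0.02. CEACAM5 (ENSG00000105388.15, chromosome 19, 41708585 to 41729798, plus strand), known as the serum tumour marker CEA, was low. It measured 0.639, 2.73, 1.13, 1.27 and 2.97 CPM in gCtl, 4.08, 2.70 and 4.33 CPM in g1, and 0.729 and 4.24 CPM in g2. One g2 library was near the lowest gCtl value and the other above the highest, the groups overlapped, and the log2 fold change of both guides was 0.84 (standard error 0.48, adjusted p = 0.21).

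The 3 genes have similar sequences, and part of the counts of CEACAM1 and CEACAM5 was not whole because reads that fit several transcripts are divided among them. Levels of the single genes are therefore less certain than their sum. Summed, they held 84.0, 116, 107, 81.5 and 118 estimated counts in gCtl, 288, 155 and 521 in g1, and 577 and 298 in g2. Every guide library was above every gCtl library also in this sum. For both guides the sum was called higher (log2 1.52, standard error 0.25, adjusted p = 0.00077), with log2 fold changes of 1.26 for g1 and 1.85 for g2, which were also called.

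Their promoters are shown because CEACAM6 was called with both guides and its 2 paralogues were not. The windows run from 250 bases before to 50 bases after a start site of the gene in RefSeq (GRCh38.p14), 5′ to 3′ on the gene's strand. They lie at chr19:41755280-41755579 for CEACAM6, chr19:41708376-41708675 for CEACAM5 and chr19:42528432-42528731 for CEACAM1. For CEACAM6, CEACAM1 and MUC13 (below) that site lies within the gene coordinates printed here and not at their edge. Capitals mark E-box letters, CANNTG, a pattern that reads the same on both strands.
CEACAM6: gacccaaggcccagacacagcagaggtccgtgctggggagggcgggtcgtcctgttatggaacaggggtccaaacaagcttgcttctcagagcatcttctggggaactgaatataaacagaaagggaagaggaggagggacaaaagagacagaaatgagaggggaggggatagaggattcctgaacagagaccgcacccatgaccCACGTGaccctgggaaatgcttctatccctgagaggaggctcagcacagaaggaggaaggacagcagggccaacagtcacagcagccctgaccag
CEACAM5: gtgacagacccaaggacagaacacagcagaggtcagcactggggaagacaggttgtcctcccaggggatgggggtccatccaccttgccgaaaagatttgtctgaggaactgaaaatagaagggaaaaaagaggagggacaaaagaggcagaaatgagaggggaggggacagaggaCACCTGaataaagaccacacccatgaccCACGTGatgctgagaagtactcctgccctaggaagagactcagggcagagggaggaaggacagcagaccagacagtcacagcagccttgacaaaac
CEACAM1: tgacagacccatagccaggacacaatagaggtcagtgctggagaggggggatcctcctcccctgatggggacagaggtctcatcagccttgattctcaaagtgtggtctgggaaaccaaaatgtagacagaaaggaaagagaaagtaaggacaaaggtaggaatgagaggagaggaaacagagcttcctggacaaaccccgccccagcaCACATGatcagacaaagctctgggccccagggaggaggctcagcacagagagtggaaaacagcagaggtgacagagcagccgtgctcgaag
In a global alignment the window of CEACAM6 shared 230 of 292 aligned bases with that of CEACAM5 and 214 of 286 with that of CEACAM1. CEACAM6 and CEACAM5 each hold CACGTG, starting 45 and 46 bases before the start, and CEACAM1 has CACATG 41 bases before it. CANNTG, which includes CACGTG, is found in 68.7% of all 35116 windows and CACGTG in 7.26%. Of the genes with CACGTG here, CEACAM6 was called and CEACAM5, which was low, was not. A role of the motif was not tested.

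Among 9 other CEACAM genes, 2 passed the filter, CEACAM8 and CEACAM19. CEACAM8, known as a granulocyte surface protein, was called higher with g2 (log2 fold change 1.23, adjusted p = 0.016) and had counts that were not whole. Of its g2 libraries, replicate 1 at 14.6 CPM lay within the gCtl range of 6.51 to 16.0 CPM and replicate 2 at 38.5 CPM above it. CEACAM18 had no count in any library.

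MUC13 (ENSG00000173702.7, chromosome 3, 124905442 to 124953819, minus strand), a transmembrane mucin of enterocytes and goblet cells, was the other gene called with both guides. It measured 10.2, 11.8, 15.2, 10.8 and 12.8 CPM in gCtl, 34.5, 15.4 and 19.8 CPM in g1, and 32.5 and 28.1 CPM in g2. All guide libraries were above gCtl, although g1 replicate 2 was close to the highest of them. The means were 12.2 ± 1.95 CPM (SD, n = 5), 23.2 ± 9.99 CPM (SD, n = 3) and 30.3 ± 3.11 CPM (SD, n = 2). The log2 fold change was 1.09 for both guides (standard error 0.22, adjusted p = 0.0032), 0.93 for g1 (standard error 0.24, adjusted p = 0.012) and 1.30 for g2 (standard error 0.26, adjusted p = 0.0023). The means of g1 and g2 did not differ beyond their spread (log2 fold change 0.38, standard error 0.28, adjusted p = 0.49). The call with g1 was lost without g1 replicate 1 (0.54, adjusted p = 0.117), and against a fold of 1.5 itself the calls for both guides together (adjusted p = 0.0819) and for g1 (adjusted p = 0.269) were lost. All counts of MUC13 fell on 1 of its 5 annotated transcripts and were whole.

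Its promoter window, chr3:124934702-124935001, is given for comparison with that of MUC2 below, again with CANNTG in capitals.
MUC13: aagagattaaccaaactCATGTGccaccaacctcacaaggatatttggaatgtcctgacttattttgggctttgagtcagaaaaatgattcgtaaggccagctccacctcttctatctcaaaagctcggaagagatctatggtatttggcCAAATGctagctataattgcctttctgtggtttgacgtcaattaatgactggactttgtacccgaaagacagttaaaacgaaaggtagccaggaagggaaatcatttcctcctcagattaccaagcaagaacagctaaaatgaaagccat

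The profiles most like CEACAM6 over the 10 libraries, by the root mean square difference of log2(CPM + 1) centred on each gene's mean, were NFATC1 (0.38), PAG1 (0.44) and ENPP4 (0.45), where the median over all genes tested was 1.14. For MUC13 they were PJA2 (0.21), ATP2B4 (0.23) and PBX2 (0.23), with a median of 0.67. NFATC1 was near zero in gCtl, with means of 0.035 CPM in gCtl, 3.20 in g1 and 4.95 in g2. CEACAM6 had means of 9.80, 34.5 and 60.0 CPM. The closeness of NFATC1 thus depends on the 1 added before the logarithm, which flattens changes near zero, and its fold change was not like that of CEACAM6.

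MUC2 (ENSG00000198788.8, chromosome 11, 1074875 to 1110511, plus strand), the gel-forming mucin of goblet cells, was near zero in every library but those labelled g2. It had 0, 1, 0, 0 and 1 counts in gCtl, 0, 0 and 1 counts in g1, and 34 and 33 counts in g2. Both g2 libraries were far above the other 8, whose counts did not exceed 1. In CPM this was 6.10 and 4.80 in g2, with a mean of 5.45 ± 0.92 CPM (SD, n = 2). The 67 counts in g2 against 2 in gCtl gave a ratio of 60.4 after scaling to library totals (95% exact interval 16.1 to 509, counting error only), and against the 1 count in g1 a ratio of 95.3 (16.5 to 3819). In the fit over genes of all biotypes MUC2 was called higher in g2 than in gCtl (log2 fold change 5.70, standard error 0.80, adjusted p = 8.6e-05; 5.71% of genes called higher) and than in g1 (6.18, standard error 0.97, adjusted p = 0.0013; 0.722% called higher). MUC2 reached the count minimum of this fit through its g2 libraries alone, so its calls with g2 follow in part from that minimum. With g1 it was not called (-0.48, standard error 1.30, adjusted p = 0.88). The call for both guides together (4.41, standard error 1.31, adjusted p = 0.034; 4.51% called higher) rested on g2, was lost with DESeq2 and when any gCtl or g2 library was left out, and the exact two-sided permutation test gave p = 0.37, where the smallest p for 5 against 5 libraries is 0.0079. With 2 g2 libraries the permutation test of g2 against gCtl cannot go below 0.095, the value it gave. That of g2 against g1 cannot go below 0.2, also the value it gave.

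**Figure D2:**
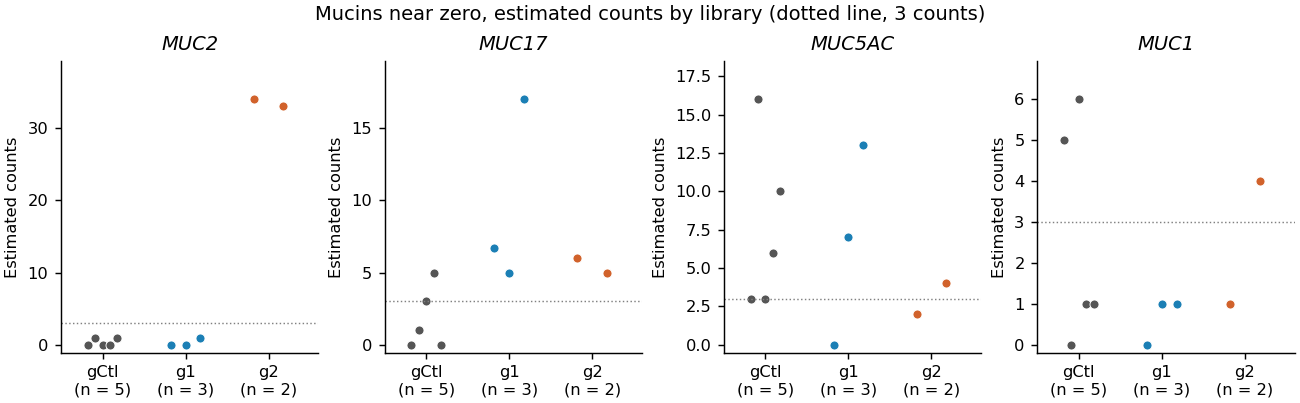
Estimated counts of the 4 mucins near zero, by guide group; each point is a library, and the dotted line marks 3 counts. MUC2 has 34 and 33 counts in the 2 g2 libraries and at most 1 in the other 8, whereas the groups overlap for MUC17, MUC5AC and MUC1.

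The MUC2 window lies at chr11:1074624-1074923, with CANNTG in capitals.
MUC2: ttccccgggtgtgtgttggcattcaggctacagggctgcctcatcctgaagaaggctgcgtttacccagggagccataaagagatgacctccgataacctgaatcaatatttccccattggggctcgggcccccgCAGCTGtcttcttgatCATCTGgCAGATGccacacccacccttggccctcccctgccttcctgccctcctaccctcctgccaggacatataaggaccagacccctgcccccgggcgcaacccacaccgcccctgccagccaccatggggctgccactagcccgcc
It holds CAGCTG 115 bases before the start of the gene, CATCTG 99 bases before it and CAGATG 92 bases before it. CAGCTG alone is found in 17.9% of all windows. MUC13 has CATGTG 233 bases before its start and CAAATG 100 bases before it. CANNTG of any kind is found in 68.7% of all windows. E-boxes are bound by basic helix-loop-helix factors, among them ATOH1, which commits intestinal cells to the secretory lineage. A role of these motifs or of ATOH1 in the level of MUC2 was not tested.

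Other goblet cell genes were read with MUC2. Of 12 goblet secretory products, 7 passed the filter, and with g2 6 of them were called higher (background 10.7%), with g1 1. Between g2 and g1, 5 of the 7 were called higher, where 1.55% of all genes were. FCGBP and AGR3 are in both counts and passed the filter through the g2 libraries alone, so their calls with g2 follow in part from the filter and the counts are no support for the list. FCGBP, which encodes the mucus protein that binds IgG Fc, had 62 and 81 counts in g2 and at most 3 in every other library. Its 143 counts in g2 against 3 in gCtl gave a ratio of 86.0 on the same scale (95% exact interval 28.8 to 422, counting error only). BCAS1, a gene expressed in goblet cells, measured a mean of 6.52 ± 2.22 CPM (SD, n = 5) in gCtl, 10.5 to 11.8 in g1, and 52.3 and 88.2 CPM in g2, and it was called with g1 (log2 fold change 0.77, adjusted p = 0.048) and with g2 (3.42, adjusted p = 1.5e-06). REG4, a secreted lectin, measured 43.6 and 17.4 CPM in g2 and at most 14.1 CPM elsewhere (g2 against gCtl 2.39, adjusted p = 0.00032). AGR2, AGR3 and ZG16 completed the 6, chosen for naming after their values were seen. AGR3 had 75 and 44 counts in g2 and at most 9 elsewhere. SPINK4, ITLN1 and RETNLB, further goblet products, had at most 3 counts in any library.

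Of 8 goblet transcription factors 5 passed the filter, and 1 of them, KLF4, was called higher with both guides together (log2 fold change 2.01, standard error 0.60, adjusted p = 0.024; background 8.14%). It passed the filter through guide libraries alone. KLF4, a factor of terminal goblet cell differentiation, had 18, 1 and 36 counts in g1 and 24 and 24 counts in g2, against 1 to 7 counts in gCtl. Its g1 libraries overlapped gCtl. ATOH1, named after its values were seen, had 11 and 10 counts in g2 and 0 in all 8 other libraries. Set against a floor of 3 counts per library it was at least 2.49-fold higher in g2 than in gCtl and at least 3.14-fold higher than in g1. In the fit over all biotypes it was called against gCtl (adjusted p = 0.009) and not against g1 (adjusted p = 0.059). ATOH1 reached the 10 counts needed for that fit through the g2 libraries alone, so its call follows in part from that minimum. SPDEF, which acts after ATOH1 in goblet cells, had at most 2 counts in any library. The goblet marker list without MUC2 and TFF3 (6 genes) summed to at most 5.18 CPM in gCtl, 3.90 to 8.65 CPM in g1 and 26.4 to 38.9 CPM in g2. With MUC2 and TFF3 (8 genes) the list summed to 58.6 to 77.5 CPM in gCtl, 46.2 to 117 in g1 and 111 to 133 in g2. In that full sum g1 and g2 overlapped. The reduced list holds FCGBP, which passed the filter through g2 alone, and CLCA1, with 60 and 11 counts in g2 and at most 4 elsewhere. The reduced list moved with MUC2, and its part in the MUC2 result was not tested. KRT20, a keratin of differentiated enterocytes, moved the same way, at 9.86 and 10.6 CPM in g2 and at most 4.26 CPM elsewhere.

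**Figure D3:**
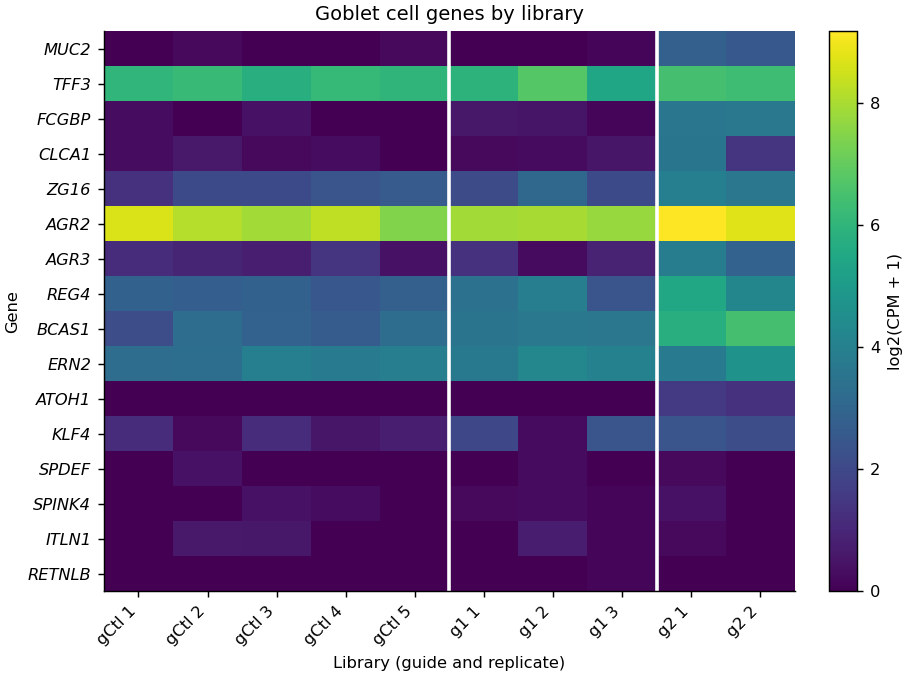
Level of MUC2, TFF3 and goblet cell genes as log2(CPM + 1), colour scale from 0, with genes in rows and the 10 libraries in columns (5 gCtl, 3 g1, 2 g2, separated by white lines). MUC2, FCGBP, AGR3 and ATOH1 are brighter in both g2 columns than in any other, while SPDEF, SPINK4, ITLN1 and RETNLB stay near zero and TFF3 is bright throughout.

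MUC17 (ENSG00000169876.13, chromosome 7, 101020072 to 101058745, plus strand), a transmembrane mucin of the enterocyte brush border, lies 3.84 megabases from LHFPL3-AS2. It had 0, 1, 3, 5 and 0 counts in gCtl, 6.7, 5 and 17 counts in g1, and 6 and 5 counts in g2. No guide library was below 5 counts, which was also the highest gCtl value. Scaled to CPM the groups overlapped, with gCtl replicate 4 at 1.20 and the guide libraries between 0.727 and 2.07. MUC17 was not called in the fit (log2 fold change of both guides 1.65, standard error 0.77, adjusted p = 0.17), and the exact two-sided permutation test over 5 against 5 libraries gave p = 0.048, 1 of 16 such tests on the 4 low mucins. MUC3A and MUC12, neighbouring transmembrane mucins with similar repeats, were low as well. Summed with MUC17 they held 1, 5, 8, 8 and 1 counts in gCtl, 36.7, 12 and 36 in g1, and 17 and 19 in g2, so that all guide libraries were above all gCtl libraries. In the fit over all biotypes the sum was called for both guides (log2 fold change 1.97, standard error 0.50, adjusted p = 0.015) and for g1 (2.20, standard error 0.53, adjusted p = 0.012), and not for g2 (1.56, standard error 0.61, adjusted p = 0.094).

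MUC5AC (ENSG00000215182.8, chromosome 11, 1157953 to 1201138, plus strand), the gel-forming mucin of the gastric surface and a neighbour of MUC2, had 3, 16, 3, 6 and 10 counts in gCtl, 0, 7 and 13 in g1, and 2 and 4 in g2. The groups overlapped (log2 fold change of both guides -0.92, standard error 0.68, adjusted p = 0.42). It did not share the g2 levels of MUC2. MUC1 (ENSG00000185499.16, chromosome 1, 155185824 to 155192916, minus strand), a transmembrane mucin of many epithelia, had 5, 0, 6, 1 and 1 counts in gCtl, 0, 1 and 1 in g1, and 1 and 4 in g2. No comparison was called (both guides -1.25, standard error 0.98, adjusted p = 0.45; g1 -2.14, standard error 1.27, adjusted p = 0.33). The 2 counts in g1 against 13 in gCtl gave a ratio of 0.195 (95% exact interval 0.0214 to 0.862), which covers counting error and leaves out the spread between libraries. None of 12 other mucin genes passed the filter, and MUC22 had no count in any library. In the fit over all biotypes MUC12 was called higher for both guides (adjusted p = 0.043; 4.51% of genes called higher). It had 0 counts in every gCtl library, 2, 4 and 5 in g1, and 0 and 6 in g2. MUC12 thus reached the 10 counts needed there through guide libraries alone, so its call follows in part from that minimum. MUC4 was called lower for g2 against gCtl (adjusted p = 0.031), where 3135 of 23413 genes were called in either direction. It had 0 counts in both g2 libraries, 1 to 7 in gCtl and 4 to 6 in g1. For g2 against g1 it was not called (adjusted p = 0.084). MUC4 reached the 10 counts through gCtl and g1 libraries alone, so its call also follows in part from that minimum. MUC12 and MUC4 were named after their values were seen.

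TFF1 (ENSG00000160182.2, chromosome 21, 42362282 to 42366594, minus strand), a trefoil peptide of the gastric surface, measured 12.0, 6.98, 5.58, 9.87 and 4.40 CPM in gCtl, 7.33, 8.02 and 15.6 CPM in g1, and 19.5 and 8.72 CPM in g2. A library of each guide was above gCtl and the others were within its range. The log2 fold change of both guides was 0.63 (standard error 0.33, adjusted p = 0.17). TFF3 (ENSG00000160180.15, chromosome 21, 42311667 to 42315651, minus strand), the trefoil peptide of goblet cells, was read in all libraries, at 64.5, 73.3, 54.6, 70.0 and 62.4 CPM in gCtl, 59.3, 108 and 42.1 CPM in g1, and 87.5 and 79.7 CPM in g2. Both g2 libraries were above gCtl, the g1 libraries ran from below it to above it, and no comparison was called (g2 against gCtl 0.36, standard error 0.25, adjusted p = 0.30). TFF3 thus did not show the near absence outside g2 that MUC2 and FCGBP did. TFF2, the remaining trefoil factor, was called lower with g1 (log2 fold change -1.92, adjusted p = 0.022; background 9.91% lower), at 0.673 to 1.90 CPM against 1.84 to 8.50 CPM in gCtl.

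**Figure D4:**
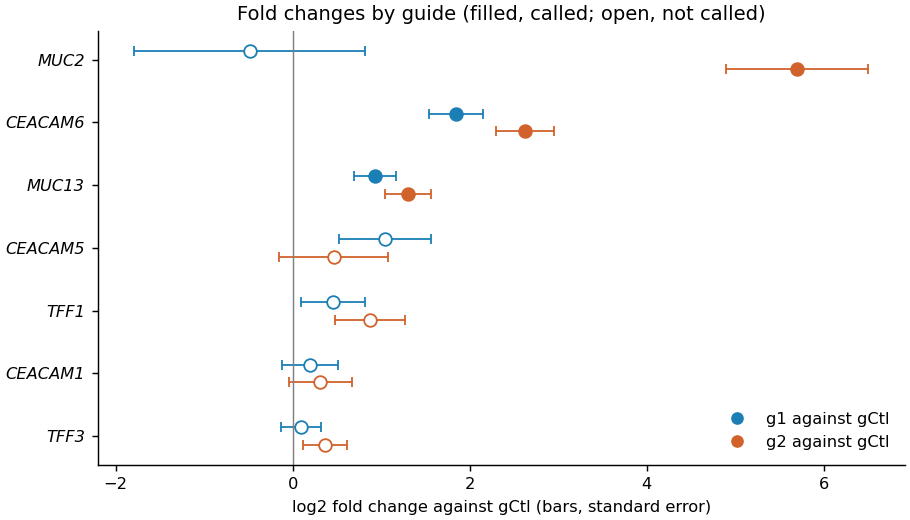
log2 fold change of 7 genes against gCtl for guide g1 (blue) and guide g2 (orange), with standard errors as bars; filled points were called and open points were not, and MUC2 comes from the fit over genes of all biotypes. CEACAM6 and MUC13 are filled for both guides, and MUC2, which entered its fit through g2 alone, for g2 (5.70) and not for g1 (-0.48).

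Gastric surface products were mostly near zero. GKN1 and GKN2, which encode gastrokines, had no count in any library, and the gastric marker list without TFF1 and MUC5AC summed to between 3.34 and 9.25 CPM. Of 7 gastric genes 2 passed the filter, and SOX2, a transcription factor of the stomach and foregut, was called higher with both guides together (log2 fold change 1.21, standard error 0.34, adjusted p = 0.02; background 8.14%) and with g1 (1.42, adjusted p = 0.012; background 6.81%). With g2 it was not called. SOX2 measured 3.37 to 6.33 CPM in gCtl, 17.2, 14.1 and 4.63 CPM in g1, and 7.35 and 7.99 CPM in g2. One g1 library thus lay within the gCtl range.

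Calls among enzymes that add sugars to mucins went in both directions. Of 28 genes of mucin-type O-glycosylation 22 passed the filter, and with both guides together 4 were called higher (background 8.14%) and 2 lower (background 11.0%). The share called lower was thus near the background. ST6GALNAC1, which makes the sialyl-Tn antigen, measured 1.58 to 4.81 CPM in gCtl, 9.83, 5.28 and 5.97 CPM in g1, and 12.6 and 22.4 CPM in g2 (log2 fold change of both guides 1.87, standard error 0.40, adjusted p = 0.0045). GALNT5 and GALNT6 start O-glycan chains and moved in opposite directions. GALNT5 rose (0.92, standard error 0.26, adjusted p = 0.019), most in g2 at 42.9 and 36.2 CPM against 10.8 to 16.7 CPM in gCtl. GALNT6 fell (-0.92, standard error 0.18, adjusted p = 0.0025), to between 39.5 and 83.0 CPM in the guide libraries from between 97.6 and 140 CPM in gCtl. With g2 alone 5 were called higher (background 10.7%) and 3 lower (background 13.0%), so the share called lower was again near the background.

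Of 12 partners of mucins and CEACAMs 9 passed the filter, with 2 called higher (background 8.14%) and 1 lower (background 11.0%) for both guides together, so the share called lower was near the background. LGALS3, a galectin that binds mucin sugars, rose from 115 ± 29.5 CPM (SD, n = 5) in gCtl to 238 ± 74.2 CPM (SD, n = 5) in the guide libraries (log2 fold change 1.05, standard error 0.22, adjusted p = 0.0034). EZR, ezrin, which links apical membrane proteins to actin, rose from 217 ± 28.4 to 386 ± 103 CPM (SD, n = 5 each; 0.84, standard error 0.18, adjusted p = 0.0042). PDZK1, a scaffold of the apical membrane that binds MUC17, fell from 42.8 ± 5.90 to 21.2 ± 6.32 CPM (SD, n = 5 each; -1.02, standard error 0.20, adjusted p = 0.0028). All 5 guide libraries were above the gCtl range for LGALS3, as for 7.08% of all genes tested. The margin was small, with g1 replicate 2 at 162 CPM and gCtl replicate 1 at 158 CPM. For PDZK1 they were all below the gCtl range, and the share of all genes in that direction was not computed. LINGO2, proposed as a receptor of TFF3, had no count in any library.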

How the data were processed

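Lexogen QuantSeq libraries, which read the 3′ end of polyadenylated RNA, were made from Caco-2 monolayers. The authors pseudoaligned the reads with kallisto to GENCODE transcripts and deposited 1 table per library with estimated counts per transcript, neither normalized nor summed per gene. Kallisto divides ambiguous reads among transcripts. Here counts were summed per gene, rounded and tested with edgeR 4.0.16 (glmQLFit and glmQLFTest, TMM) in R 4.3.3, with Benjamini-Hochberg adjustment over all genes tested. Both guides were set against gCtl together (5 libraries) and, in a model with 3 groups, one by one. Replicate numbers follow accession order and only name libraries. Standard errors were taken from the log2 fold change and its F statistic. The thresholds and the filter follow the study's methods. Permutation tests were exact and two-sided, on log2(RPM + 1), in scipy 1.17.1. Intervals cover counting error only.

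Alternatives were DESeq2 1.42.0, limma 3.58.1 on log2(RPM + 1), other scalings, filters and thresholds, fits of only the groups compared, paralogues summed, a pseudocount of 0.1 and fits that omit 1 library at a time. The RPM filter over genes of all biotypes was added after the data were seen. The programs were tested on simulated data. The genes and lists were chosen with earlier results of these data known. All 10 genes are named; of each list, the called genes with the largest fold change for both guides together (at most 3) and those with no count in any library. Coordinates are from GENCODE v29 on GRCh38. Promoters were matched for 7 of the 10 genes, not for MUC5AC, TFF1 and TFF3.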

Additional observations from a re-analysis of the deposited data

Results flagged for a closer look

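CEACAM6 is listed because 1 of the 5 guide libraries, g2 replicate 1 at 90.7 CPM, lay apart from the others, with a gap of 0.728 of their range. Of 20 sets of 5 libraries examined (10 genes, gCtl and guide libraries) 1 held such a library, and chance gives about 1 in 20. Without that library the log2 fold change of CEACAM6 for g2 against gCtl was 1.59 and called, with the remaining g2 library assumed to vary like the other groups.

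MUC2 is listed because its level differed between the guides, tested directly as g2 against g1 (log2 fold change 6.18, adjusted p = 0.0013, genes of all biotypes). It reached the count minimum of that fit through its g2 libraries alone, so the call follows in part from that minimum. With so few libraries the exact two-sided permutation test of g2 against g1 cannot go below p = 0.2, the value it gave. Both g2 libraries were above all 3 g1 libraries, and with 1 library left out at a time the value lay between 5.78 and 7.84. These values carry the same limit from the count minimum. Where a g2 library is left out the other is assumed to vary like the other groups.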

How the results depend on the processing

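The number of genes called, 2 of 6 for both guides, for g1 and for g2, was 1 for both guides together and 1 for g1 when tested against a fold of 1.5 itself, where the calls over all genes fell from 2232 to 488 and from 1947 to 506 (g2 2756 to 802, g2 against g1 579 to 92). For g2 against g1, 0 became 1, MUC2, when genes of all biotypes were tested, without an expression filter or with the RPM filter (added after the data were seen). MUC2 entered both of these fits through its g2 libraries alone. Omitting 1 library at a time, the number ran from 1 to 2 for g1 (1 without g1 replicate 1) and from 0 to 1 for g2 against g1 (1, CEACAM6, without g2 replicate 2). In a fit of only g1 and g2, 159 genes in place of 579 were called, and 267 and 314 without g1 replicate 1 or 2. Without g1 replicate 3 1249 genes were called for g1, and without g2 replicate 2 1501 for g2.

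Of the values of single genes that were not called, the log2 fold change of TFF3 for g1 turned to -0.043 and that of CEACAM1 for g1 to -0.019 with limma, and that of CEACAM5 for g2 against g1 became 0.60 with paralogues summed. With libraries left out in turn, signs turned within these ranges: MUC1 for g2 -1.49 to 0.022, TFF1 for g1 -0.0085 to 0.66 and for g2 against g1 -0.26 to 0.91, TFF3 for g1 -0.36 to 0.35, CEACAM1 for both guides -0.024 to 0.38, for g1 -0.49 to 0.45 and for g2 against g1 -0.13 to 0.80, CEACAM5 for g2 -1.32 to 1.18 and for g2 against g1 -2.35 to 0.15, and CEACAM6 for g2 against g1 -0.24 to 1.40. The cause was not tested.

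No paired analysis was possible because the labels carry no replicate numbers (those used here only name libraries). Single counts limit MUC1, MUC5AC and MUC17, and 2 libraries limit g2.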
